A study of Mus musculus with 167 samples.

Results

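The Dectin-1 and Clec12a lectin cluster is a run of C-type lectin receptor genes on mouse chromosome 6. It was followed here through 7 genes, Clec7a, Clec12a, Clec12b, Clec1a, Clec1b, Clec2d and Olr1, chosen by symbol from the 57010 Ensembl identifiers that were counted. All 7 were found in the count table. The study sequenced RNA of mouse embryonic fibroblasts (MEFs) that had been transduced by lentivirus with sets of dendritic cell transcription factors, of untransduced MEFs and of dendritic cells sorted from spleen. The libraries fell into 41 groups of 3 to 5, of which 36 groups were of transduced cells. The PIB cocktail holds Pu.1 (the gene Spi1), Irf8 and Batf3. The PIP cocktail holds Pu.1, Irf4 and Prdm1. The SII cocktail holds Spib with Irf8 and Ikzf2.

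PIB, PIP and SII went into MEFs of the C9a line, which is homozygous for a Cre in the Clec9a locus and for a Cre-dependent tdTomato in Rosa26 (C9a.SII for the last of these). SII also went into MEFs of the hCD2 line, heterozygous for an hCD2 Cre and for a YFP reporter in Rosa26 (hCD2.SII). Both lines had a C57BL/6 background. Live transduced cells were sorted on days 3, 6 and 9 as reporter positive, as CD45 positive or as positive for both, called double positive below. The fully wild-type cells came from spleen: type 1 conventional dendritic cells (cDC1, n = 3, sorted as CD11c+MHC-II+XCR1+CD11b-), those of type 2 (cDC2, n = 3, CD11c+MHC-II+CD11b+XCR1-), and plasmacytoid dendritic cells (pDC, n = 5, CD11c+Siglec-H+B220+BST2+). The untransduced controls, C9a.MEF and hCD2.MEF (n = 4 each), were sorted without reporter and without CD45. Clec9a itself lies inside the cluster, so the C9a line differs from wild-type spleen in an allele of this region as well as in cell type, and these cannot be told apart. Clec9a was at 0.754 CPM or less in C9a-line libraries, where CPM is the count scaled to a common library total, against 649 to 659 CPM in cDC1.

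C-type lectin receptors of this cluster sit on myeloid and other cells and read sugars, lipids and signs of damaged cells. Clec7a encodes Dectin-1, which binds fungal beta-glucan and signals through an activating tyrosine motif, the kinase Syk and the adaptor Card9. Clec12a and Clec12b encode receptors with an inhibitory tyrosine motif that recruits phosphatases. Clec1b encodes CLEC-2, the platelet receptor for podoplanin, and Clec1a encodes MelLec, which binds the melanin of fungal spores. Olr1 encodes LOX-1, a scavenger receptor for oxidised lipoprotein, and Clec2d encodes a ligand of the inhibitory natural killer cell receptor Klrb1b.

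The 3 members with the largest differences between cell types, Clec12a, Clec7a and Olr1, are shown with their promoters because Pu.1, Spib and the IRF factors of the cocktails bind known DNA motifs. Each run is 300 bases of RefSeq sequence on build GRCm38.p6, from 250 bases before to 50 after a RefSeq start, written 5′ to 3′ on the strand of the gene. The search covered both strands for AGGAAG (a PU.1-type ETS core), GGAANNGAAA (an ETS-IRF composite), GAAANNGAAA (an interferon response type) and TGANTCA (an AP-1 type). Capitals mark every match. The Clec12a window is chr6:129349994-129350293 on the plus strand, that of Clec7a is chr6:129472730-129473029 on the minus strand, and that of Olr1 is chr6:129507116-129507415 on the minus strand. For Clec7a and Olr1 that start is also the gene start in GENCODE M21. For Clec12a it is 129350244, which lies 7553 bases inside the longer GENCODE gene, so its window is that of a downstream start.
Clec12a: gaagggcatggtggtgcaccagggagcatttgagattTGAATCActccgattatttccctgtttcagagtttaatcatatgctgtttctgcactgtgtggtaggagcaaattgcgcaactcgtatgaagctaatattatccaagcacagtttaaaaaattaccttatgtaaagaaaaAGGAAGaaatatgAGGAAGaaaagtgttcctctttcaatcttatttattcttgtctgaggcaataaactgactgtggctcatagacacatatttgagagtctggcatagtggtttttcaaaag
Clec7a: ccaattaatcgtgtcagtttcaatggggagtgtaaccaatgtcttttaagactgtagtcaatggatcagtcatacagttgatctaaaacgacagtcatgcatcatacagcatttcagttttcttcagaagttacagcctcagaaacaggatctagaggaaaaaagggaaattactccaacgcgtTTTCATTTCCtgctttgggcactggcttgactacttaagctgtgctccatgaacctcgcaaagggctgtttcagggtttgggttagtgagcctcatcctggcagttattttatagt
Olr1: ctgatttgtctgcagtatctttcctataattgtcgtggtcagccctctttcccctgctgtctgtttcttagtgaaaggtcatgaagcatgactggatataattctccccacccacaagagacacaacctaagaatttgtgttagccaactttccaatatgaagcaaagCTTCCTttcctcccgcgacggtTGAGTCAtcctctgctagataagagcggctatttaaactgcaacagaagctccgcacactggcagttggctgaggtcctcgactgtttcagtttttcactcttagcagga
Counted from the RefSeq start of each window, Clec12a held AGGAAG at -73 and -60 and TGANTCA at -213. Clec7a held GGAANNGAAA on the reverse strand at -66, and Olr1 held AGGAAG on the reverse strand at -82 and TGANTCA at -60. Of 27025 promoter windows of this length, 35.1% held AGGAAG, 2.79% GGAANNGAAA, 3.49% GAAANNGAAA and 7.93% TGANTCA. Clec2d held GAAANNGAAA at -189, and neither Clec1b nor Clec12b held any of the 4 motifs. Sequences were matched for 6 of the 7 members, all but Clec1a. A match is a run of letters and not a measured binding site.

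Totals ran from 1146927 to 21976374 counts per library (median 10960122), and 3 counts, the floor used for a count of 0, corresponded to 0.137 to 2.62 CPM. Several libraries stood apart and are named here, and beside some of the results they touch. In 3 libraries, all of reporter-gated groups used in no test between groups below, the transduced factors contradicted the label: PIB day 6 replicate 4, PIP day 3 replicate 5 and C9a.SII day 6 replicate 5. Under 2000000 counts were pDC replicate 1 (1838064), with 1148 CPM summed over 6 fibroblast genes against 8.25 to 90.99 in the other pDC libraries, and C9a.SII day 9 double-positive replicate 1 (1146927), with 2154 CPM over 10 macrophage and monocyte genes against 68.7 to 239. The hCD2.SII day 9 double-positive replicate 1 had 5550 CPM of the fibroblast genes against 419 and 436 in the other libraries of its group. C9a.SII day 3 double-positive replicate 2 had 1.52 CPM of Ptprc, the gene of CD45. PIP day 3 double-positive replicate 3 had 14.1 CPM of Ptprc. That library held the highest Clec12a, Clec7a and Olr1 of its group, at 30.5, 2.39 and 2.96 CPM. At day 9, double-positive replicate 1 held the lowest Clec12a in C9a.SII (41.9 CPM) and in hCD2.SII (39.4 CPM). In C9a.SII replicate 1 also held the lowest Olr1 (29.6 CPM) and the lowest Clec2d (0.872 CPM, below its floor). The sorted spleen cells carried their markers: 6 cDC1 genes summed to 1716 to 1726 CPM in cDC1, against 82.7 to 92.7 in cDC2, and 5 pDC genes to 1235 to 4085 CPM in pDC, against 42.7 to 47.3 in cDC1. Nothing in the labels says that replicates came from separate cultures or animals, so p-values measure the spread between these libraries, which may be technical. In sorted bulk samples, fewer cells of a type and less RNA per cell cannot be told apart.

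**Figure D1:**
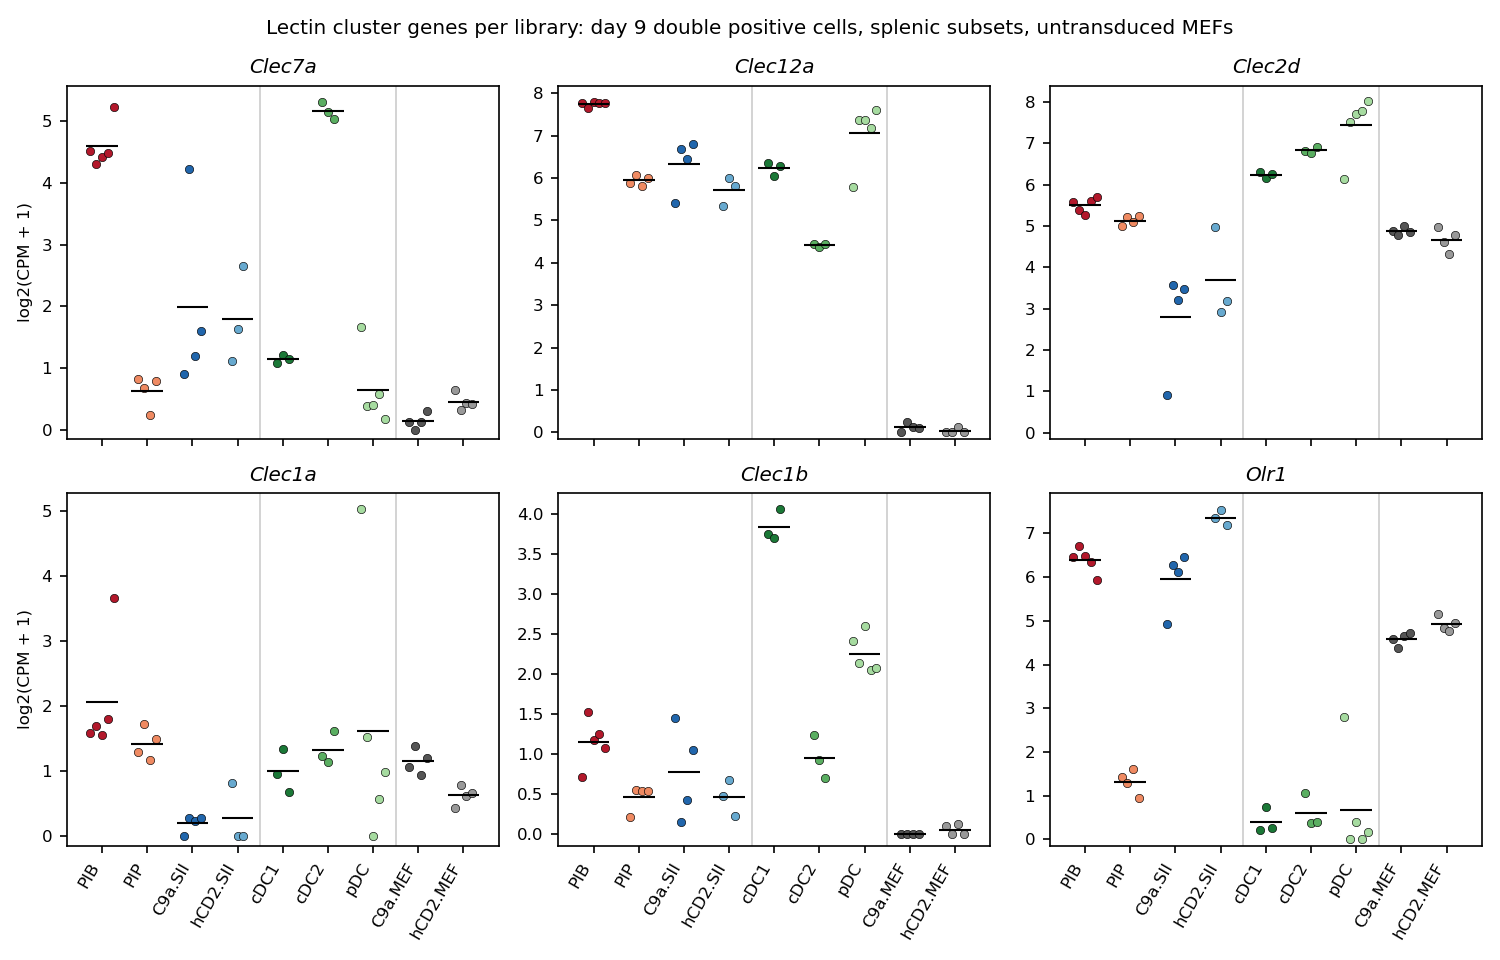
Level of 6 cluster genes in every library of 9 groups, as log2(CPM + 1) on the vertical axis; each point is 1 library, and the bar is the mean of the log2 values. The groups are, left to right, day 9 double-positive PIB, PIP, C9a.SII and hCD2.SII, then cDC1, cDC2, pDC, C9a.MEF and hCD2.MEF. Clec12a separates every transduced and splenic library from the MEFs, Clec7a is high in PIB and cDC2, and Olr1 is at 0.913 to 2.07 CPM in PIP but at 59.8 to 103.3 CPM in PIB.

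Clec12a, the inhibitory receptor gene, had the largest change against MEFs of the members tested. At day 9 the double-positive PIB libraries held 216, 199, 219, 219 and 217 CPM. The PIP libraries held 58.2, 66.4, 55.3 and 63.4 CPM and the C9a.SII libraries 41.9, 102.5, 85.9 and 110 CPM, against 0, 0.179, 0.0919 and 0.0771 CPM in C9a.MEF. In hCD2.SII it was 39.4, 62.5 and 54.9 CPM, against 0, 0, 0.0883 and 0 CPM in hCD2.MEF. No library of transduced cells overlapped the MEFs, and PIB lay above the other 3 cocktail groups. Because the MEF libraries held only 4 and 1 counts, the ratios of pooled counts are wide: 2461-fold for PIB (961 to 9034), 704-fold for PIP (275 to 2585), 1109-fold for C9a.SII (433 to 4072) and 2501-fold for hCD2.SII (448 to 98851), with 95% intervals that cover counting error only. In edgeR's quasi-likelihood test, with Benjamini-Hochberg adjustment over all tested genes, the log2 fold change was 11.15 ± 0.15 for PIB (SE, adjusted p = 1.5e-14), 9.50 ± 0.18 for PIP (4.1e-17), 9.84 ± 0.37 for C9a.SII (3e-08) and 10.66 ± 0.43 for hCD2.SII (6.5e-06). The hCD2.SII estimate was 12.06 without hCD2.MEF replicate 3, which held the only MEF count of that line.

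The difference was already present at the earliest time. On day 3 Clec12a was at 108.8, 106.7, 86.1 and 83.04 CPM in double-positive PIB cells, 18.6, 14.8 and 30.5 CPM in PIP, 43.9, 18.8, 38.1 and 43.1 CPM in C9a.SII, and 28.5, 28.8, 19.1 and 23.2 CPM in hCD2.SII. All 4 groups rose against their MEFs, with log2 fold changes of 10.18 ± 0.17 for PIB (adjusted p = 4.8e-14), 7.85 ± 0.41 for PIP (4.6e-06), 8.57 ± 0.50 for C9a.SII (5.1e-06) and 9.70 ± 0.38 for hCD2.SII (5.5e-09; 11.18 without hCD2.MEF replicate 3). On day 6 it was at 171 to 182 CPM in PIB, 43.96 to 57.9 in PIP, 64.5 to 120 in C9a.SII and 56.9 to 68.8 in hCD2.SII, so every PIB library lay above those of the other cocktails on each of the 3 days. The lowest C9a.SII value on day 3, 18.8 CPM, was that of replicate 2, the library with 1.52 CPM of Ptprc.

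Clec7a, the Dectin-1 gene, was high in PIB cells and near the floor in PIP cells. Day 9 double-positive PIB libraries held 21.97, 18.9, 20.5, 21.5 and 36.6 CPM, and PIP libraries 0.769, 0.590, 0.180 and 0.730 CPM, against 0.0912, 0, 0.0919 and 0.231 CPM in C9a.MEF. In C9a.SII the values were 0.872, 17.8, 1.28 and 2.03 CPM, so 1 library of 4 lay far above the others and just below the lowest PIB library. In hCD2.SII they were 1.15, 2.09 and 5.27 CPM, against 0.558, 0.243, 0.353 and 0.336 CPM in hCD2.MEF. Clec7a rose in PIB (log2 fold change 7.69 ± 0.37, adjusted p = 4.6e-09) and in hCD2.SII (2.83 ± 0.59, adjusted p = 0.0074), and the estimates were 8.43 without C9a.MEF replicate 4 and 2.03 without hCD2.SII replicate 3. The filter on low counts left it untested in PIP and C9a.SII at day 9. There the pooled counts gave 5.30 times the MEF level for PIP (2.03 to 17.5, counting error only) and 58.6 times for C9a.SII (24.7 to 182), where most counts came from replicate 2. The PIB library at 36.6 CPM, replicate 5, also had the most Ptprc of its group (293 against 171 to 215 CPM), the most RNA of the transduced factors (609 against 312 to 366 CPM), the most fibroblast marker RNA (6827 against 5326 to 5808 CPM) and the highest sum over macrophage and monocyte genes (1077 against 731 to 1011 CPM). Their part in its Clec7a level was not tested.

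On day 3 Clec7a was at 24.97, 22.8, 22.8 and 21.8 CPM in double-positive PIB cells, and on day 6 at 35.2, 33.2, 31.3 and 36.2 CPM. The day 3 level lay above C9a.MEF by a log2 fold change of 7.83 ± 0.26 (adjusted p = 2.2e-11; 8.56 without C9a.MEF replicate 4). In PIP cells on day 3 it was at 1.03, 1.05 and 2.39 CPM, which was also a rise (3.69 ± 0.62, adjusted p = 0.0016; 4.42 without C9a.MEF replicate 4), and in hCD2.SII it rose by 1.87 ± 0.35 (adjusted p = 0.00085). Markers of macrophages and monocytes, cells known to carry Dectin-1, moved as well: 10 genes summed to 731 to 1077 CPM in day 9 PIB cells, 96.8 to 153.1 in PIP, 68.7 to 2154 in C9a.SII and 29.3 to 82.2 in hCD2.SII, against 5.70 to 7.79 in C9a.MEF and 3.002 to 6.13 in hCD2.MEF, and all 10 genes were detected in each group. In PIB cells on day 3 the sum was 78.7 to 124.2 CPM while Clec7a was at 21.8 to 24.97 CPM. C9a.SII replicate 1 had the highest macrophage sum, 2154 CPM, and 0.872 CPM of Clec7a, which is 1 count and below its floor of 2.62 CPM. The part of these sums in the Clec7a results was not tested.

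The balance of the pair differed between PIB and PIP. The log2 ratio of Clec7a to Clec12a counts (0.5 added to each count) averaged -3.20 ± 0.36 in PIB (SD, n = 5), -6.80 ± 0.80 in PIP (n = 4) and -4.82 ± 1.59 in C9a.SII (n = 4), at day 9 in double-positive cells. Clec7a had 220 to 328 counts per library in PIB, but 10, 9, 2 and 8 in PIP. It had 1 count in C9a.SII replicate 1 and 1 to 4 per library in pDC. Counting error and the added 0.5 thus weigh on the ratios of those low-count libraries. Both genes were chosen with earlier results of these data known, so the p-values below are not from a fresh test. In a 2-sided exact permutation test PIB lay above PIP by 3.60 (p = 0.0159, the smallest that 5 against 4 libraries allow; 0.0429 adjusted over the 3 pairs), and PIP lay below C9a.SII by a difference of -1.98 (p = 0.0286, the smallest that 4 against 4 allow; 0.0429 adjusted). Without C9a.SII replicate 2 that difference was -1.22, and leaving out any 1 library gave an exact p of 0.057, the smallest that 4 against 3 allow. The difference of 1.62 between PIB and C9a.SII did not pass in the exact permutation test (p = 0.0952, also 0.0952 adjusted). Without C9a.SII replicate 2 it was 2.38 and passed (exact p = 0.036, unadjusted). In spleen the median log2 ratio was -5.87 in cDC1 (-6.09 to -5.52), 0.80 in cDC2 (0.62 to 0.90) and -8.42 in pDC (-10.03 to -4.47). The PIB ratio lay between those of cDC1 and cDC2. So did the C9a.SII mean and the day 9 double-positive hCD2.SII libraries, at -5.04, -4.85 and -3.36.

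**Figure D2:**
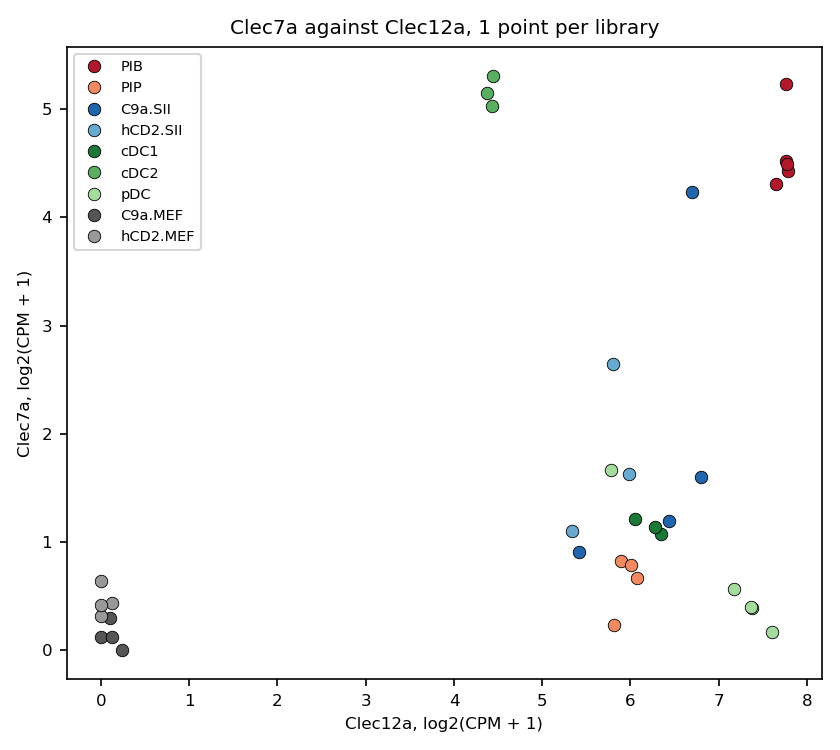
Clec7a (vertical axis) against Clec12a (horizontal axis), both as log2(CPM + 1), with 1 point per library for the same 9 groups of day 9 double-positive, splenic and MEF libraries. PIB libraries hold both genes, cDC2 libraries hold 31.8 to 38.7 CPM of Clec7a beside 19.7 to 20.7 CPM of Clec12a, cDC1 libraries hold 65.3 to 80.5 CPM of Clec12a with little Clec7a, and C9a.SII replicate 2 is the SII point nearest to PIB.

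Olr1, the LOX-1 gene, was already expressed by MEFs, and it moved in opposite directions in different cocktails. Day 9 double-positive PIB cells held 86.5, 103.3, 88.4, 79.99 and 59.8 CPM, PIP cells 1.69, 1.44, 2.07 and 0.913 CPM, and C9a.SII cells 29.6, 75.95, 68.4 and 87.2 CPM, against 22.99, 19.7, 24.1 and 25.5 CPM in C9a.MEF. The hCD2.SII cells held 161.9, 185.9 and 144.4 CPM, against 34.8, 27.4, 26.3 and 29.8 CPM in hCD2.MEF. No library of the 4 cocktail groups overlapped its MEFs. Olr1 rose in PIB (log2 fold change 1.92 ± 0.17, adjusted p = 3.7e-06), C9a.SII (1.61 ± 0.20, adjusted p = 8.6e-05) and hCD2.SII (2.46 ± 0.13, adjusted p = 2.4e-05), and fell in PIP (-3.68 ± 0.18, adjusted p = 7.8e-12). The low level in PIP was reached by day 3, at 1.22, 1.14 and 2.96 CPM (-3.69 ± 0.26, adjusted p = 2.1e-05). On day 3 PIB did not differ from MEFs by this test, at 24.6, 22.3, 20.3 and 18.7 CPM (0.13 ± 0.09, adjusted p = 0.25). Fibroblast markers were lower than in MEFs in all 4 day 9 groups: 6 genes summed to 5326 to 6827 CPM in PIB, 915 to 1205 in PIP, 1255 to 2059 in C9a.SII and 419 to 5550 in hCD2.SII, against 11771 to 12598 in C9a.MEF and 11399.5 to 13237 in hCD2.MEF. The part of these sums in the Olr1 results was not tested. Among the libraries whose factors contradict their label, Olr1 was at 0.382 CPM in PIB day 6 reporter-gated replicate 4 against 147.8 to 164.8 in the others, at 33.5 CPM in PIP day 3 reporter-gated replicate 5 against 0.603 to 1.41, and at 2.13 CPM in C9a.SII day 6 reporter-gated replicate 5 against 59.1 to 137.04.

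Clec2d, the Klrb1b ligand gene, was also expressed by MEFs and fell in C9a.SII cells and in day 3 hCD2.SII cells. C9a.SII libraries held 10.1, 5.70, 10.1 and 15.01 CPM on day 3 and 0.872, 10.9, 8.22 and 10.2 CPM on day 9, against 26.5 to 30.8 CPM in C9a.MEF. The log2 fold change was -1.42 ± 0.23 on day 3 (adjusted p = 0.0012) and -1.63 ± 0.22 on day 9 (adjusted p = 0.00013). In hCD2.SII on day 3 Clec2d was at 10.1, 13.6, 6.45 and 5.55 CPM, against 18.98 to 30.3 CPM in hCD2.MEF (-1.41 ± 0.27, adjusted p = 0.0015). On day 9 the hCD2.SII libraries held 30.3, 6.58 and 8.15 CPM and the change did not pass (-0.71 ± 0.52, adjusted p = 0.31). Without replicate 1, the library of 30.3 CPM and 5550 CPM of fibroblast markers, it was -1.82 (adjusted p = 5.8e-06). In PIB Clec2d was at 46.8, 40.9, 37.7, 47.4 and 51.3 CPM and in PIP at 30.8, 36.1, 33.2 and 36.6 CPM on day 9. Those values differed from C9a.MEF by less than 2-fold (0.71 ± 0.09 for PIB and 0.49 ± 0.07 for PIP, adjusted p = 1.6e-05 for each). Its paralog Clec2h, a member of the same Clec2 family that may share reads with it, rose in SII cells, to 6.3997 CPM in C9a.SII against 0.0230 in C9a.MEF and to 11.7 CPM in hCD2.SII against 0.0413 in hCD2.MEF.

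Clec1a, the MelLec gene, stayed under 12 CPM in the day 9 double-positive groups. PIB libraries held 1.99, 2.23, 1.93, 2.49 and 11.7 CPM, PIP libraries 1.46, 2.30, 1.26 and 1.83 CPM, and C9a.SII libraries 0, 0.216, 0.171 and 0.214 CPM, against 1.09, 1.61, 0.919 and 1.31 CPM in C9a.MEF. It fell in C9a.SII (log2 fold change -2.58 ± 0.46, adjusted p = 0.00088), and all 4 libraries lay below the MEFs. The rise in PIB (1.70 ± 0.62, adjusted p = 0.038) depended on replicate 5, the library of 11.7 CPM. Without it the log2 fold change was 0.87, and leaving out single MEF libraries gave adjusted p-values of 0.063 to 0.096. In PIP cells Clec1a was highest early: the reporter-gated libraries of day 3 held 9.22, 8.70, 8.80 and 8.75 CPM, beside 0.657 CPM in replicate 5, whose factors contradict its label. Double-positive PIP cells of day 3 held 2.25, 2.67 and 10.5 CPM and rose against C9a.MEF (2.05 ± 0.53, adjusted p = 0.013). Without replicate 3 the log2 fold change was 1.11; that library had 14.1 CPM of Ptprc against 82.6 to 84.4 CPM, and 3570 CPM of fibroblast markers against 2153 to 2212 CPM.

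Clec1b, the CLEC-2 gene, was low in transduced cells and highest in cDC1. Day 9 double-positive PIB libraries held 0.637, 1.89, 1.26, 1.37 and 1.11 CPM, and every C9a.MEF library was at 0. Against a floor of 3 counts over the MEF group, pooled Clec1b was at least 19.2-fold higher in PIB, at least 5.79-fold higher in PIP and at least 8.30-fold higher in C9a.SII. Of these, PIB alone was tested after the filter on low counts, which Clec1b passed there only through the PIB libraries. It was called higher in edgeR's test (adjusted p = 5.9e-05). In hCD2.SII the pooled ratio to the 2 counts of hCD2.MEF was 9.78 (2.02 to 92.98, counting error only). Clec1b and Clec9a overlap on the same strand by 474 bases, 184 of them exonic in both, so their reads may be shared and Clec1b levels beside high Clec9a are uncertain. In cDC1 there were 1.86 to 2.39 Clec1b counts per 100 Clec9a counts, in cDC2 3.14 to 5.81 and in pDC 1.41 to 4.04. Markers of megakaryocytes and platelets, which carry CLEC-2, summed over 5 genes to 2.31 to 12.2 CPM in the day 9 double-positive groups, against 5.97 to 9.87 CPM in MEFs. Clec12b, the second inhibitory receptor gene, had 38 counts over all libraries together and at most 3 in any. It passed the low-count filter in 0 of 30 comparisons, and no difference in it was detectable at this depth.

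On GRCm38 chromosome 6 the genes from Clec12a to Olr1 span 164.5 kb, and Clec2d lies apart, starting 228 kb before Clec9a. Clec12a (ENSMUSG00000053063) runs from 129342691 to 129365303 on the plus strand, Clec1a (ENSMUSG00000033082) from 129424772 to 129452000, Clec7a (ENSMUSG00000079293) from 129461591 to 129472779 and Olr1 (ENSMUSG00000030162) from 129485244 to 129507165, all 3 on the minus strand. The annotation used for names, GENCODE M21, lists Clec7a as a polymorphic pseudogene. Per kb of merged exon, day 9 double-positive PIB cells held 38.7 ± 1.48 CPM of Clec12a, 36.96 ± 4.49 of Clec2d, 23.4 ± 4.43 of Olr1 and 9.05 ± 2.72 of Clec7a (SD, n = 5). In hCD2.SII cells Olr1 led with 45.9 ± 5.83 CPM per kb (n = 3), in PIP cells Clec12a had 11.01 ± 0.90 against 0.215 of Clec7a (n = 4), and in cDC2 Clec7a had 13.3 ± 1.32 and Clec12a 3.68 ± 0.10 (n = 3). In PIP Clec12a was higher and Olr1 lower than in MEFs (15.2% and 14.5% of all tested genes). In C9a.SII 2 called members were higher and 2 lower (10.5% and 10.9%). In PIB all 5 called members were higher (10.4% of all tested genes were), and in hCD2.SII all 3 (10.8%). Without PIB replicate 5 the PIB count was 3. Clec12a, Clec7a and, in PIB, Clec1b passed the filter on low counts only through the transduced cells. Gabarapl1, a gene of autophagy just beyond Olr1, also rose in PIB (140 CPM against 68.004 CPM in C9a.MEF, log2 fold change 1.105 ± 0.05, adjusted p = 9.3e-10 in edgeR's test). In PIP it did not change past 2-fold (78.3 CPM, 0.43). Whether the region moved as a whole was not tested.

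**Figure D3:**
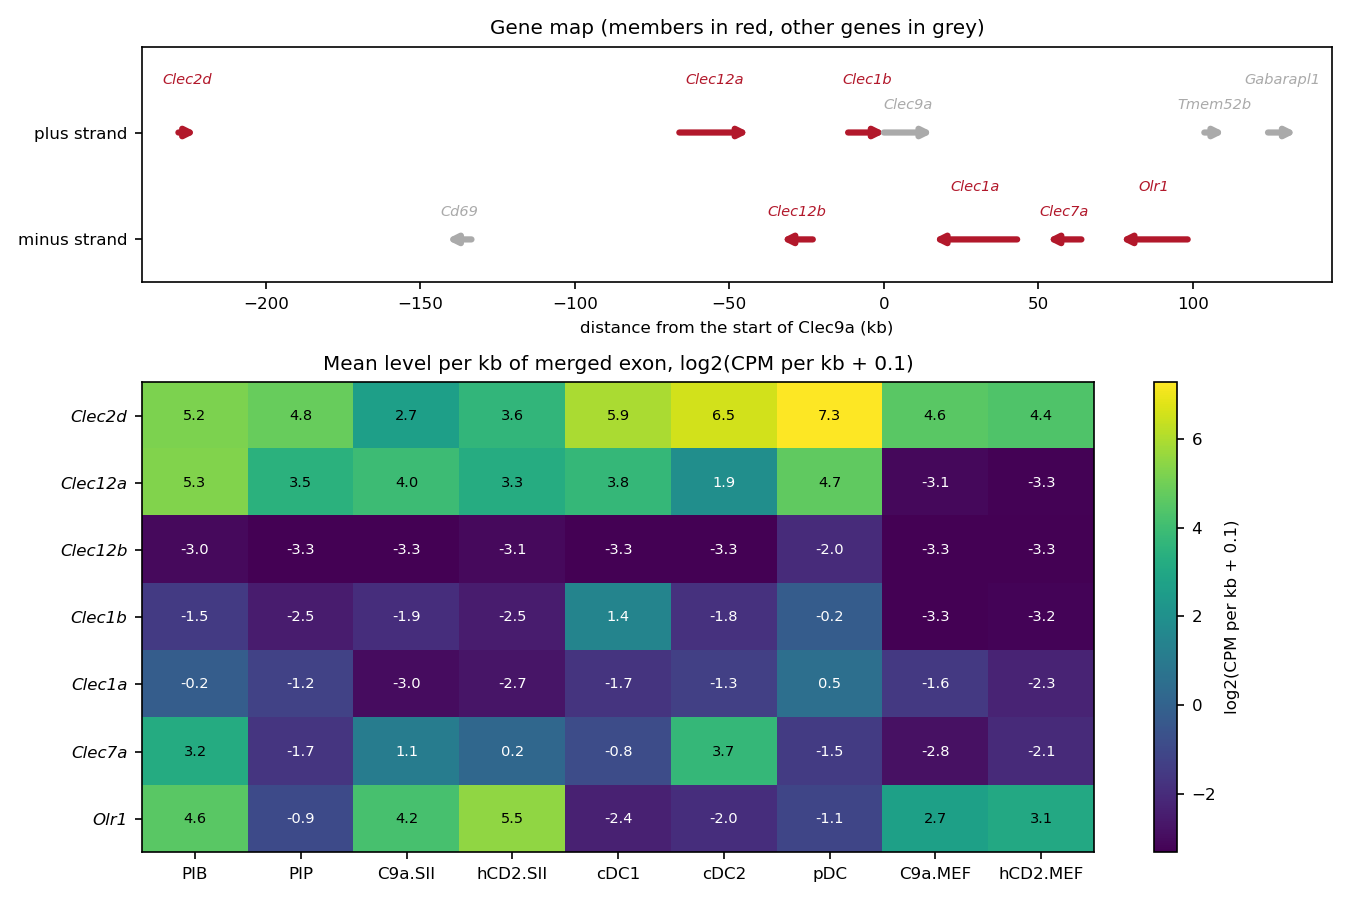
Upper panel, genes of the cluster as arrows on the 2 strands by distance from the Clec9a start in kb, members in red and other genes in grey. Lower panel, mean level of the 7 members in the 9 groups as log2(CPM per kb of merged exon + 0.1), with the value written in each cell; Clec12a and Clec2d are the brightest rows of PIB, Olr1 that of hCD2.SII, and Clec12b is near the floor in every group.

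Counted over the cluster, the calls differed between cocktails, a call being a change past 2-fold whose adjusted p was under 0.05. In day 9 double-positive PIB cells against C9a.MEF, 5 of 6 tested members were called, all higher, where 21.8% of all tested genes were called in either direction. Without PIB replicate 5 the count was 3, as Clec1a was not called and Clec1b was not tested. In PIP 2 of 4 were called, Clec12a higher and Olr1 lower (29.6% of all genes). In C9a.SII 4 of 4 were called, Clec12a and Olr1 higher and Clec1a and Clec2d lower (21.4%), and in hCD2.SII 3 of 4 were called, all higher (19.2%). At day 3 the counts were 2 of 5 in PIB (22.8% of all genes), 4 of 5 in PIP (21.8%), 2 of 4 in C9a.SII (17.6%; 4 without replicate 4) and 4 of 4 in hCD2.SII (24.1%). Members that the filter left out are not in these counts, so the tested members differ between cocktails. Over the C9a.MEF libraries Clec12a, Clec7a and Clec1b had 4, 5 and 0 counts. Over the hCD2.MEF libraries Clec12a and Clec7a had 1 and 19 counts. Where tested against these MEFs, the members named passed the filter only through the transduced group, where they were high. A call of these members could thus hardly be other than higher. Only Clec12a was called in all 8 of these comparisons, which share C9a.MEF or hCD2.MEF libraries. In each it passed the filter through the transduced group alone.

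Levels were also compared between days. Between day 9 and day 3 in double-positive PIB cells 1 of 6 tested members was called (12.1% of all genes; 2 without day 3 replicate 3, with Clec2d at 1.01): Olr1 rose by day 9 (log2 fold change 1.76 ± 0.16, adjusted p = 1.6e-05), after 24.6, 22.3, 20.3 and 18.7 CPM on day 3 and 71.4 to 82.2 CPM on day 6. Clec12a in PIB was higher on day 9 than on day 3 by 0.94 ± 0.06 (adjusted p = 5.2e-07), under 2-fold, and Clec7a differed by -0.18 ± 0.17 (adjusted p = 0.43). In PIP 1 of 5 was called (6.21% of all genes), Clec12a, which rose by 1.65 ± 0.19 (adjusted p = 0.001), while Olr1 differed by -0.03 ± 0.43 (adjusted p = 0.97). In hCD2.SII 2 of 4 were called (6.55%), Clec12a (1.04 ± 0.20, adjusted p = 0.015) and Olr1 (1.25 ± 0.13, adjusted p = 0.0013), and the Clec12a call was lost in 7 of 13 other settings, at 0.86 to 1.01. These included leaving out day 9 replicate 2 or 3 or day 3 replicate 3 or 4. In C9a.SII edgeR called 0 of 4 (0.103% of all genes), with 3 members at an unadjusted p under 0.05, and DESeq2 called 1. Clec12a in C9a.SII differed by 1.26 ± 0.30 (adjusted p = 0.16), and by 1.04 (adjusted p = 0.043) without day 3 replicate 2.

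The change from day 3 to day 9 was set against that of another cocktail by an interaction term. For Olr1 the PIB change exceeded the PIP change by 1.77 ± 0.38 (log2, adjusted p = 0.0071) and the C9a.SII change by 1.201 ± 0.28 (adjusted p = 0.022). Without the libraries under 2000000 counts the second of these was 0.95 (adjusted p = 0.021), below 2-fold. Clec1a also differed between PIB and PIP, by 2.65 ± 0.85 (adjusted p = 0.041), and was 1.88 without PIB replicate 5 and 1.82 without PIP day 3 replicate 3. Clec12a differed by -0.69 ± 0.17 (adjusted p = 0.014), under 2-fold. Of the 6 tested members 2 were called between PIB and PIP (10.6% of all genes) and 1 of 6 between PIB and C9a.SII (2.84%). The first count was 1 when any PIB day 3 library, any PIP day 9 library or PIP day 3 replicate 3 was left out. The second was 0 without PIB day 9 replicate 2, 3 or 4, PIB day 3 replicate 3 or 4, or C9a.SII day 9 replicate 1, and 2 without C9a.SII day 3 replicate 2. Between PIP and C9a.SII edgeR called 0 of 5 (1.32%), with 1 at an unadjusted p under 0.05, and DESeq2 called 0.

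**Figure D4:**
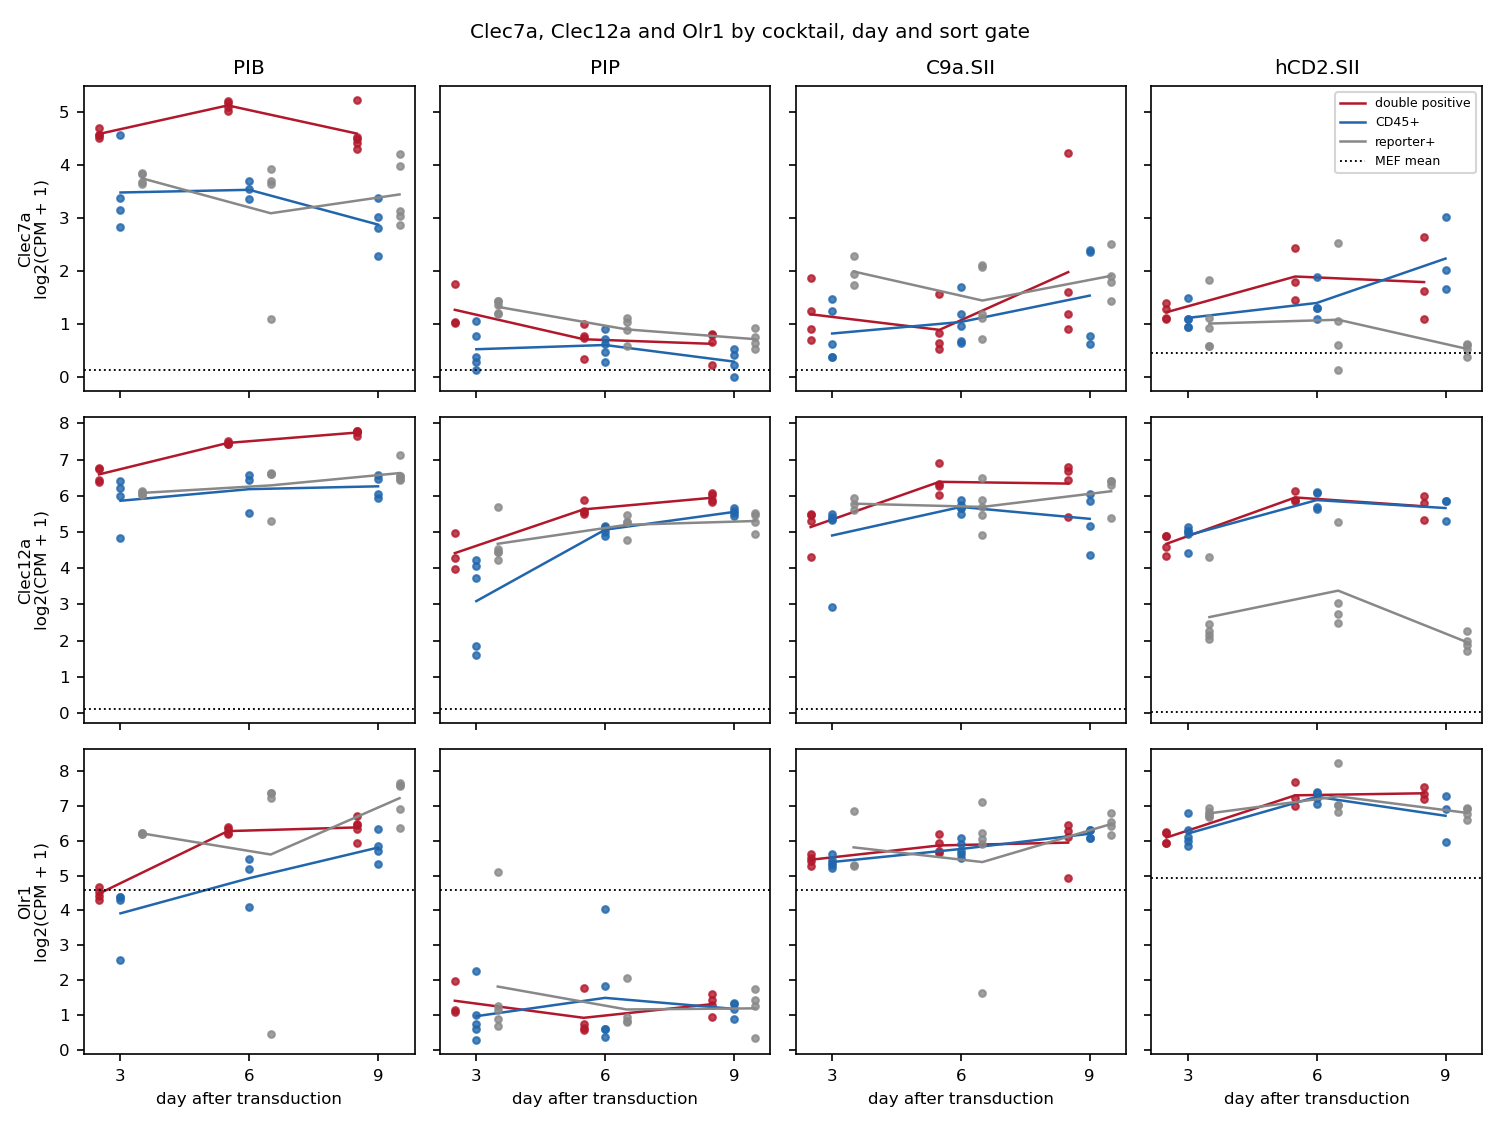
Clec7a, Clec12a and Olr1 (rows) in PIB, PIP, C9a.SII and hCD2.SII cells (columns) on days 3, 6 and 9, as log2(CPM + 1); points are libraries, lines join the means of the log2 values of each sort gate (red double positive, blue CD45+, grey reporter+) and the dotted line is the mean of the MEFs of that line. Clec12a is above the MEF line in every gate and on every day, the grey line of hCD2.SII runs below the other gates for Clec12a, and Olr1 in PIP lies below the MEF line in every library but reporter-gated replicate 5 of day 3, whose factors contradict its label.

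The double-positive groups of day 9 were also set directly against each other. Between PIB and PIP 4 of 6 tested members were called, all higher in PIB (21.6% of all genes): Olr1 by 5.63 ± 0.25 (adjusted p = 1.2e-08), Clec7a by 5.20 ± 0.30 (adjusted p = 2.5e-08), Clec12a by 1.68 ± 0.06 (adjusted p = 1.1e-10) and Clec1b by 1.57 ± 0.42 (adjusted p = 0.0067). Between PIB and C9a.SII 3 of 6 were called (18.5%), Clec1a (4.30 ± 0.84, adjusted p = 0.0019; 3.45 without PIB replicate 5), Clec2d (2.37 ± 0.24, adjusted p = 1.6e-05) and Clec12a (1.31 ± 0.17, adjusted p = 8.7e-05). Clec7a did not pass there (1.93 ± 0.74, adjusted p = 0.071), and without C9a.SII replicate 2 it did (3.92, adjusted p = 5.8e-06), as it did with 1 fit over all groups (2.02, adjusted p = 0.00038). Between PIP and C9a.SII 3 of 4 were called (22.5%): Clec1a and Clec2d were higher in PIP, by 3.27 ± 0.46 (adjusted p = 0.00015) and 2.13 ± 0.25 (adjusted p = 5.1e-05), and Olr1 was lower by a log2 fold change of -5.28 ± 0.31 (adjusted p = 4.9e-07). Clec12a of PIP and C9a.SII differed by -0.35 ± 0.18 (adjusted p = 0.14).

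Clec12a differed between sort gates in PIB and in hCD2.SII. Of Ptprc, double-positive day 9 libraries held 171 to 293 CPM in PIB and 71.2, 228 and 271 CPM in hCD2.SII, against 2.23 to 11.8 CPM in reporter-gated PIB and 0.450 to 0.626 CPM in reporter-gated hCD2.SII. Clec12a was at 199 to 219 CPM in double-positive PIB libraries, against 92.9, 93.2, 87.6, 84.9 and 139.4 CPM in the reporter gate, a log2 fold change of 1.14 ± 0.11 (adjusted p = 0.00019; 0.092 with 1 fit over all groups). In hCD2.SII the double-positive libraries held 39.4, 62.5 and 54.9 CPM of Clec12a, against 2.67, 3.84, 2.93 and 2.25 CPM in the reporter-gated ones (4.16 ± 0.22, adjusted p = 8.9e-05). Reporter-gated hCD2.SII cells also had less RNA of the transduced factors: 7 genes summed to 576 to 1557 CPM in double-positive and 121.8 to 135.9 CPM in reporter-gated libraries, and fibroblast markers to 419 to 5550 and 7539 to 8483 CPM. Whether those differences had a part in the Clec12a result was not tested. In C9a.SII the gates differed by 0.31 ± 0.25 (adjusted p = 0.77), and a test added after these values were seen gave a gate effect smaller in C9a.SII than in hCD2.SII by -3.80 ± 0.38 (adjusted p = 0.00022). These SII cells differ in line, Cre and reporter, which cannot be told apart here. In reporter-gated C9a.SII the transduced factors summed to 414 CPM in replicate 1 and 667 to 781 CPM in the others. Their part in the added test was not tested. In PIP the gates differed by 0.68 ± 0.14 (adjusted p = 0.13).

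Clec7a was higher in double-positive than in reporter-gated cells in PIB (21.97, 18.9, 20.5, 21.5 and 36.6 CPM against 7.83, 17.4, 6.31, 7.25 and 14.8 CPM; 1.21 ± 0.29, adjusted p = 0.035) and in hCD2.SII (1.15, 2.09 and 5.27 CPM against 0.306 to 0.536 CPM; 2.58 ± 0.57, adjusted p = 0.013). The PIB call was lost in 10 of 15 other settings, among them the omission of any double-positive library or of reporter-gated replicate 1, 3 or 4, and the hCD2.SII value was 1.804 without replicate 3. Olr1 went the other way in PIB, at 59.8 to 103.3 CPM in double-positive and 81.1 to 202 CPM in reporter-gated libraries, a difference that did not pass (-0.88 ± 0.26, adjusted p = 0.094) and did without reporter-gated replicate 2 (-1.06, adjusted p = 0.012). In hCD2.SII Olr1 was under 2-fold higher in double-positive cells (0.58 ± 0.13, adjusted p = 0.012). Clec1b was at 0.170 to 0.598 CPM in double-positive hCD2.SII cells and at 0 in every reporter-gated library, at least 5.85-fold higher. Over the members 2 of 6 were called between the gates in PIB (1.7% of all genes), 2 of 4 in hCD2.SII (12.2%), and 2 of 5 in the added test between SII lines (6.87%), Clec12a and Clec1b. Without hCD2.SII double-positive replicate 1, the library rich in fibroblast RNA, 4 were called in hCD2.SII, Clec2d among them (-2.27, adjusted p = 2.2e-10). In the added test Clec1b was not called or not tested when any of 9 single libraries was left out, C9a.SII double-positive replicates 1 and 3 and reporter-gated replicates 1 and 2, hCD2.SII double-positive replicate 2 and any reporter-gated hCD2.SII library. By edgeR 0 of 4 were called in PIP (0.0122%; 1 at an unadjusted p under 0.05) and 0 of 4 in C9a.SII (0.148%; 0 at an unadjusted p under 0.05), and DESeq2 called 0 in each.

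In spleen the 3 dendritic cell types held different members. Clec12a was at 80.5, 65.3 and 76.6 CPM in cDC1, 20.7, 19.7 and 20.6 CPM in cDC2, and 53.9, 164.6, 163.3, 142.9 and 193.5 CPM in pDC. Clec7a was at 1.104, 1.32 and 1.21 CPM in cDC1, 38.7, 34.5 and 31.8 CPM in cDC2, and 2.18, 0.311, 0.318, 0.483 and 0.123 CPM in pDC, so cDC2 was the Dectin-1 group. Clec1b was at 12.5, 12.1 and 15.7 CPM in cDC1 and under 5.10 CPM in each library of the others, and Clec2d at 70.99 to 77.9 CPM in cDC1, 107.9 to 119.3 in cDC2 and 69.1 to 261 in pDC. Olr1 was at 0.158 to 0.659 CPM in cDC1 and 0.301 to 1.09 CPM in cDC2. Between cDC1 and cDC2 3 of 4 tested members were called (34.8% of all genes): Clec12a (1.88 ± 0.13, adjusted p = 1.8e-11) and Clec1b (3.83 ± 0.34, adjusted p = 2e-09) were higher in cDC1 and Clec7a was lower (-4.82 ± 0.23, adjusted p = 3.5e-14). The splenic Clec1b differences are uncertain, as its reads may be shared with Clec9a. Clec9a averaged 654 CPM in cDC1, 20.3 CPM in cDC2 and 200 CPM in pDC. Between cDC2 and pDC 3 of 5 were called (34.9%), Clec7a higher in cDC2 (6.18 ± 0.56, adjusted p = 1.7e-05; 6.98 without pDC replicate 1) and Clec12a (-2.70 ± 0.39, adjusted p = 0.00047) and Clec1b (-1.86 ± 0.53, adjusted p = 0.021) lower. The Clec1b call was lost without any single cDC2 library (adjusted p of 0.059 to 0.098) and with no filter on low counts (0.14). Between cDC1 and pDC 1 of 3 was called (15.8%), Clec1b. Without pDC replicate 1, the library with fibroblast RNA, Clec12a (-1.13, adjusted p = 0.00054) and Clec2d (-1.53, adjusted p = 8e-05) were called lower in cDC1 as well.

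Double-positive day 9 cells were then compared with splenic cells, PIB with cDC1, PIP with cDC2 and SII with pDC. PIB cells exceeded cDC1 in Clec12a (1.82 ± 0.10, adjusted p = 4.2e-10), Clec7a (4.58 ± 0.30, adjusted p = 4.1e-09) and Olr1 (8.28 ± 0.37, adjusted p = 1.7e-09; a pooled ratio of 269, 115.2 to 828.9 by counting error) and were lower in Clec1b (-3.11 ± 0.28, adjusted p = 1.4e-07). Clec1b differences from splenic cells are uncertain, as its reads may be shared with Clec9a. With Clec1a, which was lost without any single cDC1 library (adjusted p of 0.067 to 0.11), 5 of 6 were called, where 57.5% of all genes were. PIP cells exceeded cDC2 in Clec12a (1.75 ± 0.10, adjusted p = 1.3e-10) and lay below it in Clec7a (-5.72 ± 0.23, adjusted p = 1.1e-12) and Clec2d (-1.56 ± 0.09, adjusted p = 1.4e-10). With Olr1 (1.62 ± 0.52, adjusted p = 0.0099) 4 of 5 were called (56%). The Olr1 value was 2.45 without cDC2 replicate 1, and the call was lost without cDC2 replicate 2 (1.37, adjusted p = 0.055) or 3 (1.34, adjusted p = 0.053) and with 1 fit over all groups (adjusted p = 0.073). Olr1 set SII cells apart from pDC, at 29.6 to 87.2 CPM in C9a.SII and 144.4 to 185.9 CPM in hCD2.SII, against 5.98, 0, 0.318, 0 and 0.123 CPM in pDC, of which 5.98 CPM was in replicate 1. Its log2 fold change was 6.38 ± 1.13 for C9a.SII (adjusted p = 0.0017; 9.11 without pDC replicate 1) and 7.68 ± 1.12 for hCD2.SII (adjusted p = 0.00081; 10.48 without it). Clec2d was lower than in pDC in both, by log2 fold changes of -4.42 ± 0.55 in C9a.SII (adjusted p = 8.9e-05) and -3.52 ± 0.68 in hCD2.SII (adjusted p = 0.003; -4.66 without hCD2.SII replicate 1). Of the tested members 3 of 4 were called in C9a.SII (38.2%) and 4 of 5 in hCD2.SII (33%), where Clec12a was lower than in pDC (-1.39 ± 0.39, adjusted p = 0.021; 0.067 to 0.10 without single hCD2.SII libraries, and 0.2 with no filter on low counts).

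Sorted by level over the 9 groups, Clec12a ran PIB, pDC, C9a.SII, cDC1, PIP, hCD2.SII, cDC2, C9a.MEF and hCD2.MEF. Of the 8 neighbouring pairs in that order 3 had no overlap: PIB over pDC, hCD2.SII over cDC2, and cDC2 over C9a.MEF. For Clec7a the order was cDC2, PIB, C9a.SII, hCD2.SII, cDC1, pDC, PIP, hCD2.MEF and C9a.MEF, with 2 separate pairs, PIB over C9a.SII and hCD2.MEF over C9a.MEF. Olr1 ran hCD2.SII, PIB, C9a.SII, hCD2.MEF, C9a.MEF, PIP, pDC, cDC2 and cDC1, with 3 separate pairs, and Clec2d was separate in 4, Clec1b in 3 and Clec1a in 0 of 8. Over all 41 groups and 40 neighbouring pairs, Clec7a was separate in 1, the day 3 PIB cells in the double-positive over the reporter gate, and Clec12a in 2. Each order was set by the same values, and such pairs were not counted for other genes. The counts thus describe the members and do not set them apart from other genes.

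The genes that act behind these receptors were described from a list of 12 for Dectin-1 signalling, named with earlier results of these data known. Against C9a.MEF at day 9, 5 of 11 tested genes rose in PIB (10.4% of all tested genes), 8 of 12 in PIP (15.2%) and 5 of 11 in C9a.SII (10.5%), 4 of 11 rose in hCD2.SII against hCD2.MEF (10.8%), and none of the list fell in these 4 comparisons by edgeR. The median log2 fold change of the list was 0.94 in PIB, 2.05 in PIP, 0.86 in C9a.SII and 0.65 in hCD2.SII, beside medians near 0 over all genes. Syk, the kinase that Dectin-1 engages, averaged 94.3 CPM in PIB, 344 CPM in PIP and 209 CPM in C9a.SII, against 8.32 CPM in C9a.MEF, with log2 fold changes of 3.57 ± 0.11 in PIB and 5.596 ± 0.09 in PIP. Card9, the adaptor downstream of Syk, was at 0.295 CPM in PIB and 1.54 CPM in PIP, against 20.7 CPM in cDC1. PIB, which held the most Clec7a of the transduced groups, had less Syk and Card9 RNA than PIP, by log2 fold changes of -2.004 for Syk and -2.49 for Card9, and 4 of the 12 genes fell in PIB against PIP (11.01% of all tested genes). In PIB against cDC1, where 25.4% of all tested genes rose and 32.2% fell, 1 of 12 rose, Src, and 6 fell, with Vav1, an exchange factor in this pathway, at 1.28 CPM in PIB against 208 CPM in cDC1. In PIP against cDC2 1 rose and 8 fell, where 29.3% of all tested genes rose and 26.7% fell.

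Phosphatases that inhibitory receptors can recruit were listed as 3 genes. Of these, Inpp5d and Ptpn6 rose in all 4 cocktail groups against MEFs and Ptpn11 in none by edgeR. Of all tested genes 10.4% rose in PIB, 15.2% in PIP, 10.5% in C9a.SII and 10.8% in hCD2.SII. Inpp5d, the lipid phosphatase SHIP-1, averaged 55.6 CPM in PIB and 88.2 CPM in PIP, against 0.269 CPM in C9a.MEF. In hCD2.SII it averaged 92.5 CPM, against 0.122 CPM in hCD2.MEF. Ptpn6, the tyrosine phosphatase SHP-1, averaged 9.27 CPM in PIB and 14.4 CPM in PIP, against 0.724 CPM in C9a.MEF. Pdpn, the podoplanin gene and CLEC-2 ligand, averaged 252 CPM in PIB and 88.8 CPM in PIP, against 258 CPM in C9a.MEF, and fell in PIP (log2 fold change -1.31 ± 0.05, adjusted p = 4.8e-13).

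Genes whose group means ran most like those of a member were ranked by Pearson's r of log2 levels over the 41 groups among 11540 genes, for members reaching 10 CPM in a group. Clec12a ran most like Mpeg1 (0.912), Ucp2 (0.886) and Ahcyl2 (0.829), and Clec7a like Ifitm6 (0.873), Sik2 (0.853) and Sri (0.851). Olr1 ran most like Ch25h (0.957), Maob (0.944) and Kifc3 (0.936), Clec2d like Map3k8 (0.914), Ankmy2 (0.893) and Trim14 (0.880), and Clec1b like Slc8b1 (0.895), Htr7 (0.882) and Tlr12 (0.877). Between members r was 0.51 for Clec7a and Clec12a, 0.06 for Clec12a and Olr1, 0.60 for Clec1a and Clec2d and -0.57 for Clec2d and Olr1. Groups of 1 cocktail share cells, line and factors, so these values describe the 41 groups and carry no p.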

How the data were processed

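RNA of 5000 sorted cells per extraction was made into stranded total-RNA libraries with 13 to 14 PCR cycles, per the labels' protocols. The authors deposited whole-number counts per Ensembl gene for 167 libraries. The submitters' processing notes name STAR 2.7.9a, Salmon 1.10.1 and mm10. The counter, the annotation and the strand setting are not given in the sources used here, so overlapping and antisense genes may share reads. Names came from GENCODE M21 (52029 of 57010 identifiers), and the 4981 unnamed ones (median 13.2% of counts) stayed in totals. Levels are CPM of the library total, with 95% exact intervals for pooled counts, which cover counting error only.

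Each comparison was fitted on its own groups with edgeR 4.0.16 in R 4.3.3 (TMM, filterByExpr by group, robust quasi-likelihood F test, Benjamini-Hochberg over all tested genes), as 26 comparisons of 2 groups, 3 interaction terms and 1 added after values were seen. A gene was called, or said to rise or fall, at an adjusted p under 0.05 and at least 2-fold. The named genes are the 7 members in every comparison, the called genes with the largest changes in each list and the 3 genes most like a member. Members and lists were chosen with earlier results of these data known. DESeq2 1.42.0 was used in alternatives. Same-numbered libraries correlated above 0.1 in every pair (0.109 to 0.218, 3 pairs) only for hCD2.SII against hCD2.MEF, and the labels give the numbers no meaning.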

Additional observations from a re-analysis of the deposited data

Results flagged for a closer look

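Every member was examined in each group of 4 or more libraries where its median was at least 1 CPM. In 27 of these combinations (21.1%), spread over 16 groups, a library lay far from the rest by Dixon's criterion, where chance gives about 1 in 20. Of the 3 libraries whose factors contradict their label, 2 account for 6 of them. PIB day 6 reporter-gated replicate 4 held 38.8 CPM of Clec12a and 0.382 CPM of Olr1. PIP day 3 reporter-gated replicate 5 held 51.1 CPM of Clec12a, 0.657 CPM of Clec1a, 15.8 CPM of Clec2d and 33.5 CPM of Olr1.

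In double-positive PIB cells of day 9, replicate 5 held 36.6 CPM of Clec7a and 11.7 CPM of Clec1a, both above the others, and replicate 2 held 199 CPM of Clec12a, below them. Reporter-gated PIB replicate 5 of that day held 139.4 CPM of Clec12a. In double-positive C9a.SII cells of day 9, replicate 2 held 17.8 CPM of Clec7a. In the reporter gate of that day, C9a.SII replicate 1 stood apart with 40.5 CPM of Clec12a and 30.8 CPM of Clec2d, beside 3337 CPM summed over fibroblast markers against 984 to 1165 CPM in the others.

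Reporter-gated hCD2.SII replicate 4 of day 6 held 37.4 CPM of Clec12a and 299.7 CPM of Olr1, beside 854 CPM summed over transduced factors against 168 to 180 CPM in the others. Reporter-gated hCD2.SII replicate 5 of day 3 held 18.9 CPM of Clec12a and 11.5 CPM of Clec2d, and CD45-gated hCD2.SII replicate 4 of day 3 held 1.82 CPM of Clec7a. CD45-gated C9a.SII replicate 5 of day 3 held 6.60 CPM of Clec12a and 20.3 CPM of Clec2d, and double-positive C9a.SII replicate 3 of day 6 held 8.20 CPM of Clec2d.

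Among the other PIB and PIP groups, CD45-gated PIB replicate 4 of day 3 held 9.04 CPM of Clec2d and 5.02 CPM of Olr1. Reporter-gated PIB replicate 1 of day 3 held 22.1 CPM of Clec2d, double-positive PIB replicate 4 of day 3 held 15.04 CPM of it, and CD45-gated PIP replicate 4 of day 3 held 15.8 CPM. Reporter-gated PIP replicate 4 of day 6 held 8.93 CPM of Clec1a.

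Effects also differed between groups by the interaction term. The day 9 to day 3 change in double-positive cells differed between PIB and PIP by 2.65 for Clec1a and 1.77 for Olr1 (log2), and between PIB and C9a.SII by 1.201 for Olr1. The gate effect on day 9 differed between C9a.SII and hCD2.SII by -3.80 for Clec12a and -5.53 for Clec1b, in a comparison added after these values were seen. In hCD2.SII the Clec1b value rests on 9 counts in double-positive and 0 in reporter-gated libraries, so its size is uncertain. As given above, its call did not hold when any of several single libraries was left out.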

How the results depend on the processing

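Of 72 member changes called in 30 comparisons, 56 stayed called under every alternative run for their comparison and 16 were lost under at least 1. Of 71 tested and not called, 22 were called under at least 1. None turned its direction. The cause of the shifts below was not tested. Shares of all genes called under each alternative are not given here, so the counts do not set the members apart from other genes.

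Members called moved as follows. With no filter on low counts there were 4 for PIP against C9a.MEF on day 9, 5 for C9a.SII on day 3, and between days 4 in PIB, 2 in PIP and 1 in hCD2.SII, and 1 between PIB gates. With 1 fit over all groups there were 4 for PIP on day 9 and 4 for C9a.SII on day 3 against MEFs, between days 3 in PIB, 1 in C9a.SII and 0 in hCD2.SII, between gates 0 in PIB and 4 in hCD2.SII, 3 for cDC1 against pDC, 5 for C9a.SII against pDC, and 1 in each interaction term of PIP. DESeq2's Wald test gave 2 between PIP days, 1 between C9a.SII days, 2 for cDC1 against pDC and 2 in the interaction of PIB and C9a.SII. Without libraries under 2000000 counts there were 3 for cDC1 against pDC, 0 in that interaction and 1 in the gate interaction, and the Clec7a to Clec12a ratio of PIP less C9a.SII was -2.05 (exact p = 0.057). Without CD45-gate libraries under 5 CPM of Ptprc there were 1 between C9a.SII days and 2 in the interaction of PIB and C9a.SII. Without 4 doubted libraries, chosen after seeing the data, there were 1 between C9a.SII days, 4 between hCD2.SII gates and 3 for cDC1 against pDC.

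The replicate block gave 1 called between hCD2.SII days, 1 between hCD2.SII gates and 1 in the interaction of PIB and PIP. It changed no call of hCD2.SII against hCD2.MEF on day 9, where same-numbered libraries deviated together. The labels do not pair the other groups.

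Leaving out single libraries gave 3 to 5 members called in PIB against C9a.MEF on day 9, 2 to 4 in C9a.SII on day 3, between days 1 to 2 in PIB, 0 to 1 in C9a.SII and 1 to 3 in hCD2.SII, between gates 1 to 3 in PIB and 2 to 4 in hCD2.SII, and 1 to 3 for cDC1 against pDC. The interactions had 1 to 2 for PIB and PIP, 0 to 2 for PIB and C9a.SII and 1 to 3 for the gates. The ratio difference ran from 1.22 to 2.38 for PIB less C9a.SII and from -2.38 to -1.22 for PIP less C9a.SII. Depth limits Clec12b, Clec1a and Clec1b, which are near 3 counts in many libraries.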
